A study of Mus musculus with 2 samples.

Results

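The oxidative phosphorylation genes were followed across the cell clusters of the mouse colon 2 weeks after irradiation. Members were the rows of the deposited table of cluster averages whose symbols name a subunit of complexes I to V (Nduf, Sdh, Uqcr and Cyc1, Cox4 to Cox8, and Atp5 symbols) or a gene of the mitochondrial genome (mt- symbols). There were 112 members among 17044 genes: 86 nuclear ones and 26 of the mitochondrial genome. The nuclear members comprised 37 of complex I, 4 of complex II, 9 of complex III, 16 of complex IV and 20 of complex V. The mitochondrial ones were 13 messenger RNAs, 2 ribosomal RNAs and 11 transfer RNAs. The symbol pattern also took in the pseudogenes Atp5k-ps2, Atp5l2-ps and Atp5l-ps2 and the related genes Atp5s and Atp5sl.

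The study had 1 group, colon epithelium of wild-type C57BL/6 mice exposed to irradiation and taken 2 weeks later, sequenced as 2 single-cell libraries. The column names carry a cluster number and no library, and the cells were therefore read as pooled. Age, sex, radiation dose and number of animals are not stated in the labels, nor is it stated whether these animals had received transplanted cells. Without another group or a value per library, no difference below has a test across samples. The authors drew the 12 clusters, numbered 0 to 11, from the same values, so a cluster set against the others is a description.

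Oxidative phosphorylation passes electrons from NADH and succinate along complexes I to IV of the inner mitochondrial membrane to oxygen, and complex V uses the proton gradient so built to make ATP. The mitochondrial genome encodes a few core subunits of complexes I, III, IV and V, while the nucleus encodes the rest and all of complex II. In the colon, mature absorptive colonocytes near the surface burn butyrate by this route, and the promoters of many nuclear subunit genes are known to hold sites for NRF1, GABPA and other ETS factors, or YY1.

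Promoters were compared because most nuclear members followed the mean of the others across clusters, as described below. RefSeq promoters of build GRCm38.p6, 250 bases before to 50 after the start, were matched for 68 of the 86 nuclear members, and Cox4i1 was among the 18 without one. Shown are 180 bases before to 25 after the start for 1 member of each complex that holds a match, followed by Ndufa4, Atp5g1 and Cox7a1. Ndufa4 and Atp5g1 had the highest ratio of cluster 9 to cluster 8 among the members, and Cox7a1 and Ndufa6 the lowest, and they were picked for display after their values were seen. Capitals mark GCGCATGC (NRF1), CCGGAAG (GABPA and other ETS factors) or AAGATGGC (YY1), or the reverse complement of one of these.
Ndufa6, chr15:82354267-82354471, minus strand: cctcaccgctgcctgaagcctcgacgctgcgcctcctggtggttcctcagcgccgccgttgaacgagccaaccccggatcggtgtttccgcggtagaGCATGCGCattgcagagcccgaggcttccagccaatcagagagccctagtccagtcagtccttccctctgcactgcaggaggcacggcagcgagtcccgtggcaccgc
Sdhb, chr4:140961091-140961295, plus strand: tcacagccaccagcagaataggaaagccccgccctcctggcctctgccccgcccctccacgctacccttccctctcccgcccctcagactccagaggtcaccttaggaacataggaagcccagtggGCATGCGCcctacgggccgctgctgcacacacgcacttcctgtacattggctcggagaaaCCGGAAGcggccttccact
Uqcr11, chr10:80406797-80407001, minus strand: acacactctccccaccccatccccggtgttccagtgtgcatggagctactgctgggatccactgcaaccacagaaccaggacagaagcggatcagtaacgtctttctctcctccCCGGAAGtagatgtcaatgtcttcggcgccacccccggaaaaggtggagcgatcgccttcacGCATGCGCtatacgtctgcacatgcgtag
Cox6a1, chr5:115348934-115349138, minus strand: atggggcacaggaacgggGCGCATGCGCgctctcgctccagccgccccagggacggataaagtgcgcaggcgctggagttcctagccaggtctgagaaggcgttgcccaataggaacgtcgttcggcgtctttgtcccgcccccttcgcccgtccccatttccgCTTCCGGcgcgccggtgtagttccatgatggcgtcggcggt
Atp5k, chr5:108434375-108434579, minus strand: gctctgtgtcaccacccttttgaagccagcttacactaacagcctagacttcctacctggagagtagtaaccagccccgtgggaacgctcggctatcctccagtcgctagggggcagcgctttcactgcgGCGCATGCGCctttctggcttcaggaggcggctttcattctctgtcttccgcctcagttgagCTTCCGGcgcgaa
Ndufa4, chr6:11907426-11907630, minus strand: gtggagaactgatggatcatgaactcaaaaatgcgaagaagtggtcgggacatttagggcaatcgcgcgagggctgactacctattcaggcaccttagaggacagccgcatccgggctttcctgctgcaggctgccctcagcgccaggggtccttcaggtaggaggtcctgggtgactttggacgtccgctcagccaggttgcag
Cox7a1, chr7:30183991-30184195, plus strand: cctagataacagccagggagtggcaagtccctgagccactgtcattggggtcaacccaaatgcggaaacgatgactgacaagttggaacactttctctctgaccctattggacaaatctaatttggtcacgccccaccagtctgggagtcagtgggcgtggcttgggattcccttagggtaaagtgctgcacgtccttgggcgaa
Atp5g1, chr11:96075607-96075811, minus strand: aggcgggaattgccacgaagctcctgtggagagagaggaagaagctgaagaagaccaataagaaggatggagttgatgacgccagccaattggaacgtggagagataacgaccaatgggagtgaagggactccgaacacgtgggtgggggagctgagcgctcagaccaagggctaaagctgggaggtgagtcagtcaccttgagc

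Both strands were searched, and where the NRF1 letters run on as a palindrome, as in Cox6a1 and Atp5k, both strands match at overlapping positions. Ndufa6, Sdhb, Uqcr11, Cox6a1 and Atp5k all held the NRF1 letters, and all but Ndufa6 also held the ETS letters in the stretch shown, and none of the 8 stretches holds the YY1 letters. Ndufa4, Atp5g1 and Cox7a1 held none of the letters searched. Members that departed from the common pattern were found with and without matches, since Ndufa6 and Atp5l, described below, both held the NRF1 letters and Atp5l the ETS letters too. Over the 68 promoters, 10 held the NRF1 letters (14.7%), 16 the ETS letters (23.5%) and 11 the YY1 letters (16.2%). Among all 27025 genes with a promoter the shares were 3.05%, 9.93% and 3.19%. Among the 1139 genes with a promoter and a mean level of at least 1 they were 6.15%, 22.7% and 5.79%, so the ETS share of the members was close to that of other expressed genes. Any of the 3 motifs was found in 31 of 68 member promoters (45.6%), against 30.8% of the expressed genes. In cluster 3 the 29 that passed the filter and held a match had a median log2 fold of 0.82, and the 33 without had 0.87. A match is a description of letters in this window, not a binding site.

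Levels are mean UMIs per 10000 UMIs of a cell, averaged over the cells of a cluster. The recovered numbers of cells were 482, 398, 352, 339, 324, 274, 251, 247, 197, 168, 31 and 19 for clusters 0 to 11, 3082 in all. The median UMI total per cell was lowest in clusters 5 and 6, at 1424 and 2417, and highest in cluster 7, at 19518. Intervals in parentheses are exact Poisson 95% intervals on approximate UMI numbers, for ratios exact conditional binomial ones, and cover counting error only. Fixed marker lists showed what the clusters hold. Clusters 8 and 9 were high in the 7 colonocyte markers, summed at 245 and 260 against 1.5 to 65.8 elsewhere, and are called colonocyte-like. Goblet cell markers led in cluster 0 (978) and cycling markers in cluster 7 (18.7). Clusters 5 and 10 went against the epithelial label: cluster 5 had neutrophil markers summed at 913 and the 6 epithelial markers at 31.2, and cluster 10 had macrophage and dendritic cell markers at 423, mast cell markers at 194 and epithelial markers at 17.3. Cluster 11 had enteroendocrine markers at 1224 and epithelial markers at 88.8. In the remaining clusters the summed epithelial markers were between 113 and 235. With only an average for each cluster, a lower share of expressing cells and less RNA in each cannot be told apart.

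Summed over the nuclear members, oxidative phosphorylation transcripts took from 1.51% to 8.57% of the UMIs of a cluster. The sum was highest in cluster 3 at 8.57% (8.54 to 8.61), followed by cluster 9 at 7.59% (7.54 to 7.64) and cluster 8 at 6.76% (6.71 to 6.82). Clusters 0, 1, 2, 4, 6 and 7 lay between 4.31% and 5.36%. The enteroendocrine-marked cluster 11 had 3.03% (2.95 to 3.12), and the immune-marked clusters 10 and 5 were lowest at 2.59% (2.52 to 2.66) and 1.51% (1.47 to 1.55). The transcripts of the mitochondrial genome followed another order. They were highest in cluster 6 at 8.05% (7.96 to 8.13), cluster 1 at 6.88% (6.85 to 6.91) and cluster 4 at 6.55% (6.52 to 6.59), and lowest in clusters 10 and 11 at 0.923% (0.883 to 0.964) and 0.945% (0.898 to 0.994).

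**Figure D1:**
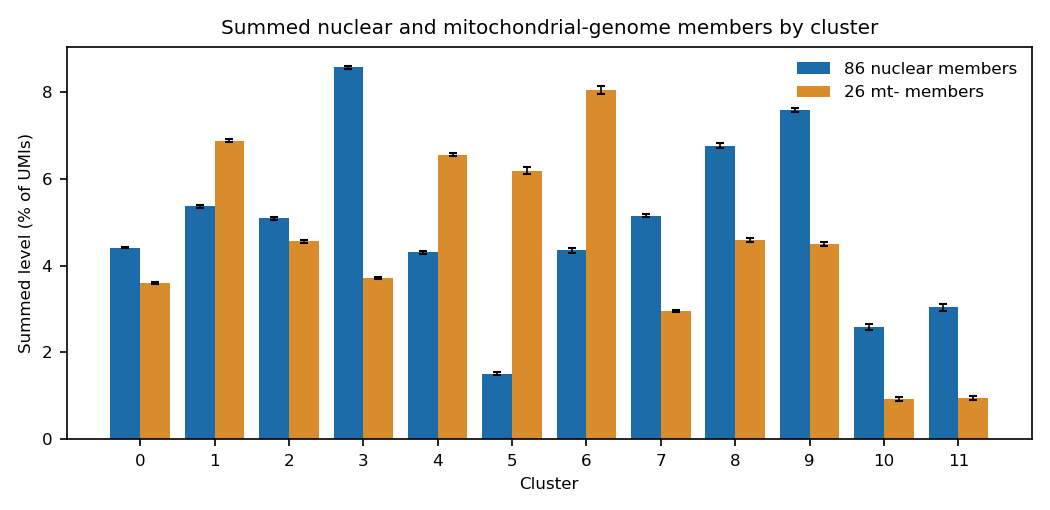
Bars give the summed level of the 86 nuclear members (blue) and the 26 members of the mitochondrial genome (orange) as a percentage of UMIs, by cluster, with exact Poisson 95% intervals for counting error. Nuclear bars are tallest in clusters 3, 9 and 8, while orange bars are tallest in clusters 6, 1 and 4 and shortest in clusters 10 and 11.

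The ratio of the summed nuclear to the summed mitochondrial level therefore spanned a wide range. It was 0.244 (0.237 to 0.252) in cluster 5, 0.540 (0.531 to 0.550) in cluster 6 and 0.657 (0.651 to 0.663) in cluster 4. Clusters 1, 2, 0, 8, 9 and 7 had 0.780, 1.12, 1.23, 1.48, 1.69 and 1.75. The ratio reached 2.31 (2.3 to 2.33) in cluster 3, 2.81 (2.67 to 2.96) in cluster 10 and 3.21 (3.03 to 3.4) in cluster 11. High values arose in different ways: in cluster 3 the nuclear sum was high, and in clusters 10 and 11 the mitochondrial sum was low. The lowest ratios stood in the clusters with the shallowest cells, 5 and 6, and Malat1, a nuclear RNA, was at 2.99% and 4.85% of UMIs there against 0.945% to 4.76% elsewhere. The part of depth and RNA quality in these ratios was not tested.

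Cox4i1, the general form of the largest nuclear-encoded subunit of cytochrome c oxidase (complex IV), was the highest nuclear member by mean level (GRCm38, chr8:120668222-120674207, plus strand). It stood at 49.7 (49.0 to 50.5) in cluster 3, 41.1 (39.9 to 42.3) in cluster 9 and 40.0 (38.7 to 41.4) in cluster 8. Clusters 2 and 1 were both at 28.1. Clusters 4, 6, 7 and 0 followed at 23.8, 23.0, 22.2 and 21.0, then clusters 11 and 10 at 14.4 and 14.0, and cluster 5 at 8.31 (7.38 to 9.32). Clusters 9 and 8, 2 and 1, 4 and 6, 6 and 7, and 11 and 10 were neighbours in this order whose intervals overlapped. Members were left out when genes were ranked by the Spearman correlation of their levels with Cox4i1 over the 12 clusters. Among the other genes with a mean level of at least 1, Car2, a carbonic anhydrase of colonocytes, came first at 0.97. Cisd3 and Serpinb6a were at 0.97, and Hint1 and Higd2a at 0.95. The 12 points share libraries and depth, and these correlations have no test.

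To count members, a mean level of at least 1 over the 12 clusters was asked, which 73 nuclear members, 10 of the mitochondrial genome and 1468 of all genes passed. Ndufs3 lay just inside at 1.27 and Ndufb4 just outside at 0.743. By complex, 34 of 37, 4 of 4, 9 of 9, 12 of 16 and 14 of 20 passed for complexes I to V. The 13 nuclear members left out were the 3 pseudogenes, Atp5s, Atp5sl, Ndufb4, Ndufs1, the ATP synthase isoform Atp5g2 and the tissue isoforms Cox4i2, Cox6a2, Cox6b2, Cox8b and Ndufa4l2, with the isoforms at 0.153 or below in every cluster. Folds compare a cluster with the mean of the other 11 as log2 of values plus 0.1, and count as called at 1.5-fold, higher or lower.

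In cluster 3, 64 of the 73 nuclear members were at least 1.5-fold higher than in the other clusters, where 16.6% of all genes were. Their median log2 fold was 0.84, against 0.05 for all genes. Every complex took part: 29 of 34 members of complex I, 3 of 4 of complex II, all 9 of complex III, 11 of 12 of complex IV and 12 of 14 of complex V. The medians by complex ran from 0.71 in complex II to 1.07 in complex IV. Cluster 9 was alike, with 57 of 73 higher against 13.6% of all genes and a median of 0.69 against 0.03. With clusters 5, 6, 10 and 11 left out of the comparison, the counts were 37 in cluster 3, beside 8.24% of all genes, and 9 in cluster 9, beside 5.65%. With scaling by the median of ratios, 28 were higher in cluster 9, beside 7.2% of all genes. Of the 73 members, 49 had their highest level in cluster 3 and 15 in cluster 9. The shares of all genes highest in these clusters were not counted.

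Among the leading members, Cox8a, a small complex IV subunit, was at 38.8 in cluster 3, 36.7 in cluster 8, 30.6 in cluster 9 and between 9.37 and 22.9 elsewhere. Uqcrh, the hinge protein of complex III, was at 22.9 in cluster 3, 18.2 in cluster 9 and between 4.32 and 14.9 elsewhere. Ndufb9, an accessory subunit of complex I, was at 15.0, 13.6 and 12.4 in clusters 3, 8 and 9 and between 1.86 and 8.43 elsewhere. Atp5b, the catalytic beta subunit of ATP synthase, was instead highest in cluster 9 at 23.3, with 20.9 in cluster 3, 20.2 in the cycling cluster 7 and 3.22 in cluster 5. Sdhb, the iron-sulfur subunit of complex II, was level in clusters 3 and 9 at 6.98 (6.69 to 7.28) and 6.90 (6.43 to 7.39). Its partners Sdha, the flavoprotein, and the membrane anchors Sdhc and Sdhd reached 2.73, 2.69 and 4.71 at most, all in cluster 3 or 9.

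**Figure D2:**
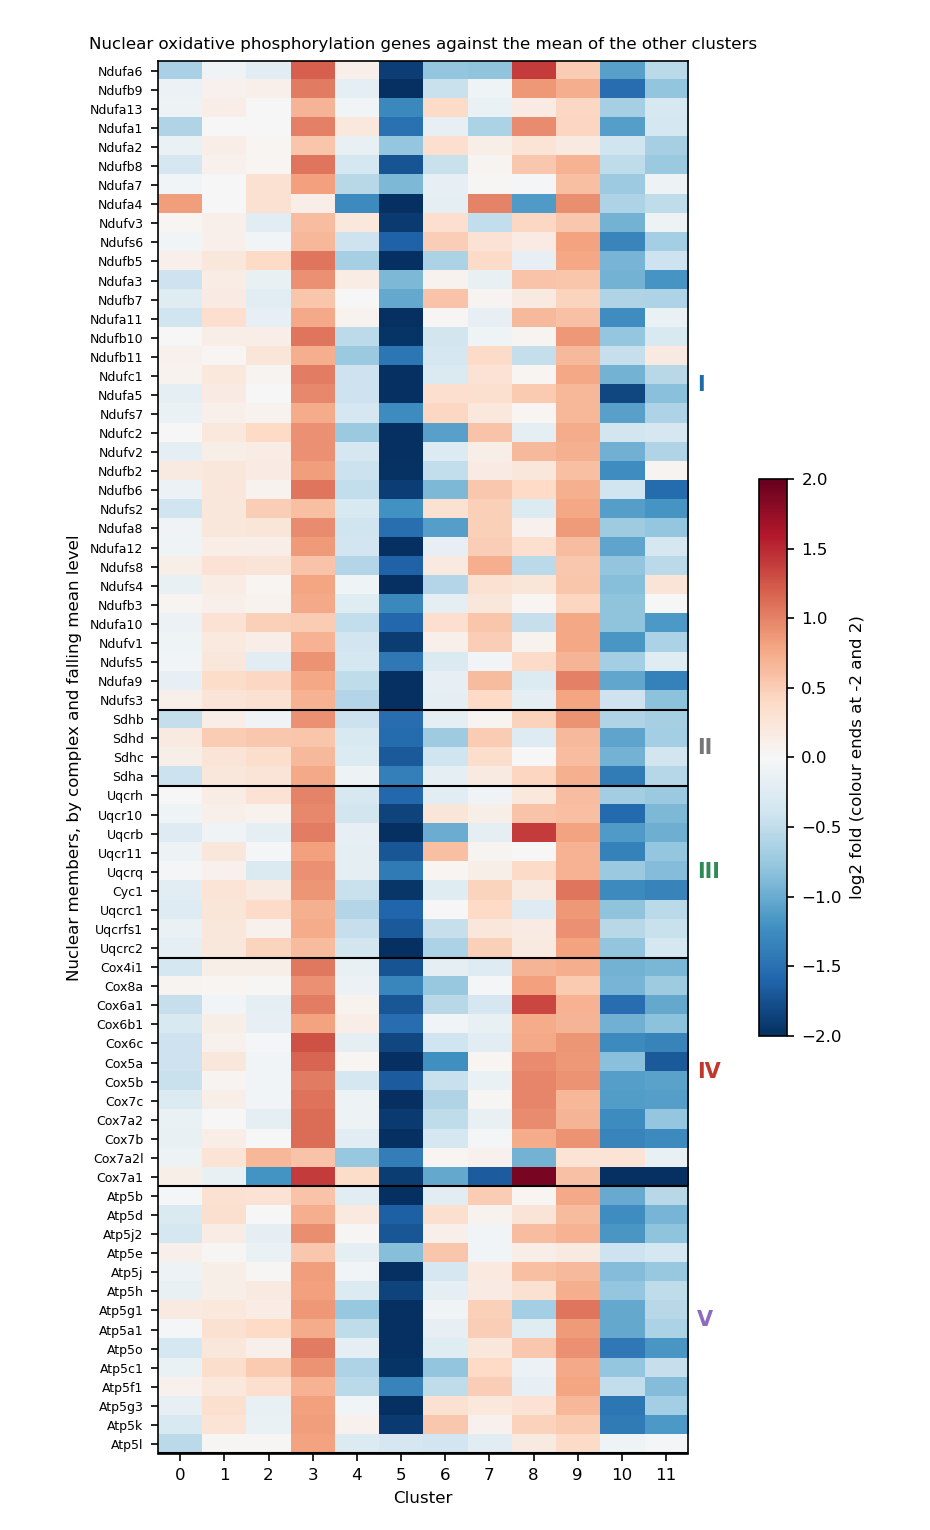
Each row is 1 of the 73 nuclear members with a mean level of at least 1, grouped by complex (I to V, top to bottom) and ordered by mean level, and each column is a cluster. Colour gives the log2 fold against the mean of the other 11 clusters: columns 3 and 9 are red in nearly every row, column 5 is blue, and column 8 is red mainly in complex IV.

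The lowest levels stood in cluster 5, the neutrophil-marked cluster, where 72 of 73 nuclear members were at least 1.5-fold lower. This is read against 70.0% of all genes lower there, with a median of -1.82 for the members and -1.29 for all genes. With scaling by the median of ratios 38 were lower, beside 34.1% of all genes. For 69 members cluster 5 was lower than every other cluster. The share of all genes with their lowest level there was not counted, so this has no background. Atp5l, subunit g of ATP synthase, was the exception to the 1.5-fold rule, at 1.62 (1.23 to 2.10) in cluster 5 and 1.41 (1.30 to 1.52) in cluster 0, its lowest. In cluster 10, 62 of 73 were lower against 43.0% of all genes (median -0.95 against -0.36), and in cluster 11, 43 of 73 against 37.4% (median -0.66 against -0.27).

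How cluster 4 stood depended on the clusters it was set against. Against the other 11, 9 of 73 members were lower and none higher, while 34.3% of all genes were lower and 18.9% higher, and the medians were -0.30 and -0.25, a difference that turned to the other side when clusters were scaled by the median of ratios. Against the clusters other than 5, 6, 10 and 11, 36 of 73 were lower, beside 35.4% of all genes. Set directly against cluster 4, cluster 3 had 70 of 73 nuclear members at least 1.5-fold higher, where 34.5% of all genes were, with a median log2 ratio of 1.05 against 0.21. All 73 were higher in cluster 3, each with an interval of the ratio above 1, while 58.3% of all genes were higher there by any amount. The ratio was smallest for Ndufv3, at 7.13 against 5.55, and largest for Ndufb5, a complex I subunit, at 8.47 against 2.79. The mitochondrial genome went the opposite way: 8 of 10 transcripts were at least 1.5-fold lower in cluster 3 than in cluster 4 (19.4% of all genes). All 10 intervals lay below 1. Intervals were not taken for all genes. The summed colonocyte markers were 65.8 in cluster 3 and 49.2 in cluster 4. Median UMI totals were 12105 and 11796, with lower quartiles of 10453 and 4245. Ribosomal protein genes took 15.9% and 5.87% of UMIs, and Malat1 1.15% and 4.76%. The part of depth and RNA quality in this contrast was not tested.

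In cluster 8 the complexes parted. Of all nuclear members, 19 of 73 were at least 1.5-fold higher against 20.1% of all genes, a share close to the background. Of these 19, 11 belonged to complex IV, where 11 of 12 members were higher with a median of 0.88. Complex I had 5 of 34, complex II 0 of 4, complex III 1 of 9 and complex V 2 of 14, with medians of 0.17, 0.22, 0.18 and 0.22. The 12th, Cox7a2l, was lower. The medians of complexes I and III were -0.06 and -0.04 when mitochondrial, ribosomal protein and Malat1 UMIs were left out of the scaling, and that of complex IV was then 0.67 with 7 of 12 higher. Against the clusters other than 5, 6, 10 and 11, 5 of 12 complex IV members were higher, beside 16.1% of all genes. Ndufa4 was counted with complex I, as its symbol places it. The summed level of nuclear complex IV was 2.03 times that of complex V in cluster 8 (1.99 to 2.08), the highest of any cluster. It was 1.57 in cluster 3, 1.44 (1.41 to 1.47) in cluster 4, 1.38 (1.28 to 1.48) in cluster 5 and 1.36 (1.34 to 1.39) in cluster 9. Cluster 6 was lowest at 1.01 (0.97 to 1.05).

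Clusters 8 and 9 were both high in colonocyte markers. The count of nuclear members at least 1.5-fold higher in cluster 9 was close to the background. The count of lower ones was under it, and the complexes were spread unevenly. Cluster 9 had 24 of 73 at least 1.5-fold higher than cluster 8, where 30.0% of all genes were, and 2 lower, where 18.1% were. The median log2 ratio was 0.33 against 0.13 for all genes, and with scaling by the median of ratios 11 were higher, beside 21.3% of all genes. By any amount, 4 of 12 complex IV members were higher in cluster 9, beside 57.4% of all genes. At 1.5-fold, 1 of the 12 was higher and 1 lower. The complex IV median was -0.06. It became 0.14 when mitochondrial, ribosomal protein and Malat1 UMIs were left out and -0.34 under the median of ratios. Of the 61 members of the other complexes 54 were higher in cluster 9 by any amount, beside 57.4% of all genes. Their medians for complexes I, II, III and V were 0.35, 0.46, 0.56 and 0.34, and 0.08, 0.19, 0.29 and 0.06 under the median of ratios. Over all 73, the interval of the ratio lay above 1 for 47 and below 1 for 9, under the scaling as reported. These intervals cover counting error only and were not taken for all genes, so the counts have no background. Cluster 8 differed from cluster 9 in depth, with median totals of 6539 and 12871 UMIs, and in ribosomal protein genes, at 4.01% and 16.3% of UMIs. The part of either in the difference was not tested.

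Single members differed by more than their complexes. Ndufa4, a small subunit named for complex I and now placed with complex IV, was at 9.13 (8.59 to 9.69) in cluster 9 and 2.38 (2.07 to 2.72) in cluster 8, a ratio of 3.83 (3.31 to 4.47). Atp5g1, 1 of the genes for the membrane ring subunit c of ATP synthase, was at 18.2 (17.4 to 19.0) and 6.07 (5.57 to 6.60), a ratio of 3.0 (2.73 to 3.3), with 2.11 to 16.2 in the other clusters. Its paralog Atp5g3, which yields the same mature protein, was at 8.77 and 6.93, so Atp5g1 was 2.07 times Atp5g3 in cluster 9 and 0.876 times in cluster 8. Cox7a2l, a Cox7a relative, was at 5.74 (5.32 to 6.19) and 2.56 (2.24 to 2.92). These 3 members were low in cluster 4 as well, at 2.15, 5.76 and 2.89.

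Other members were higher in cluster 8. Cox6a1, the general form of subunit 6a, was at 36.9 (35.7 to 38.2) in cluster 8 and 25.3 (24.4 to 26.2) in cluster 9, with 5.28 to 30.9 elsewhere. Ndufa6, an accessory subunit of complex I, was at 18.8 (17.9 to 19.7) and 11.1 (10.6 to 11.8), and Uqcrb, a small subunit of complex III, at 24.1 and 17. Cox7a1, the form of subunit 7a known from heart and skeletal muscle, was at 4.27 (3.85 to 4.72) and 1.97 (1.73 to 2.24). These 4 members had their highest level of all clusters in cluster 8. Cox4i1 itself did not differ beyond counting error, with a ratio of cluster 9 to 8 of 1.03 (0.983 to 1.07), and its log2 ratio moved between -0.24 and 0.24 with the scaling.

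**Figure D3:**
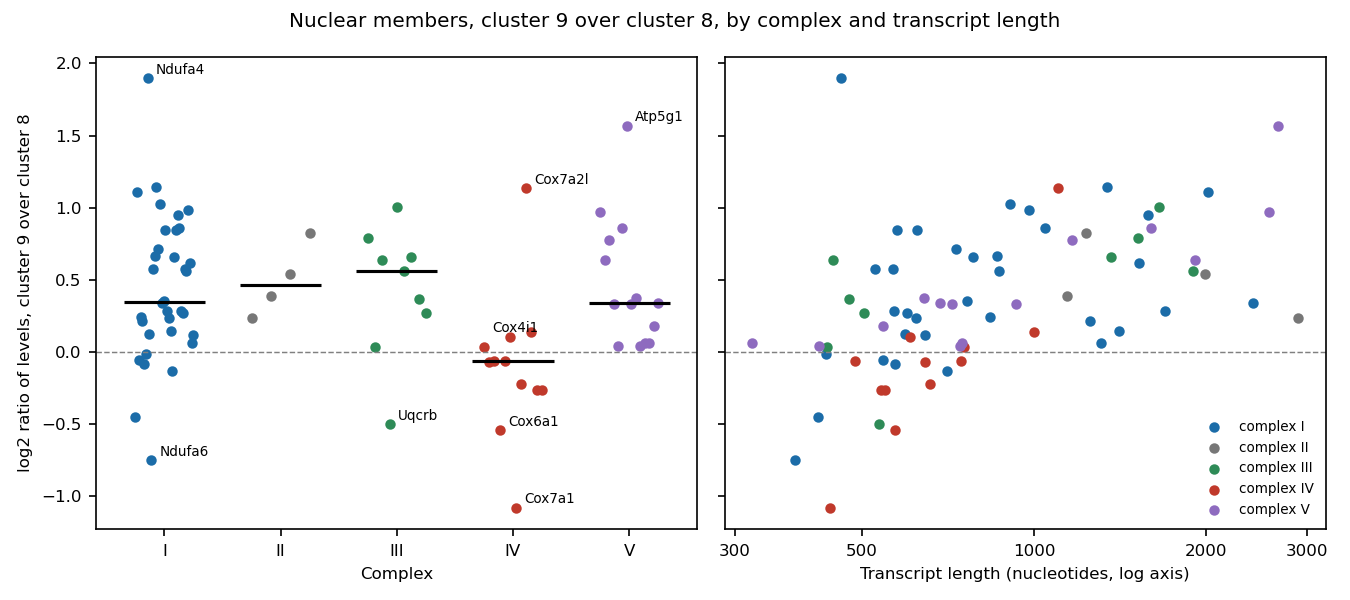
Each point is 1 nuclear member with a mean level of at least 1, and the vertical axis is the log2 ratio of its level in cluster 9 over cluster 8. The left panel groups members by complex with a black bar at the median, which is -0.06 for complex IV and 0.34 to 0.56 for the others. The right panel sets the same ratios against transcript length on a log axis, where all members over 1000 nucleotides lie above 0.

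The ratio of cluster 9 to 8 also went with transcript length among the members. Lengths were the median over the basic transcripts of a gene in GENCODE vM21. The 25 members of up to 600 nucleotides had a median log2 ratio of 0.04, the 23 of 600 to 1000 had 0.33, and the 25 above 1000 had 0.66, all 25 of them above 0. The Spearman correlation over the 73 members was 0.55, and 0.51 over the 61 outside complex IV. Over the 1431 genes of all with a length it was -0.21, the opposite sign. Between clusters 3 and 4 the members' correlation was 0.14. Members share libraries and complexes, and these values are descriptions.

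Across all 12 clusters most nuclear members followed the mean of the other nuclear members. The Spearman correlation of a member with that mean had a median of 0.89, and 58 of 73 reached 0.8. It was not computed for all genes, so how many other genes reach 0.8 is not known. Shifts of whole clusters enter these values too. The lowest were Cox7a2l at 0.49, Ndufa4 at 0.59, Ndufb11 at 0.65, Atp5l at 0.71 and Ndufv3 at 0.74. Cox7a2l was highest in cluster 2, at 7.33 (6.97 to 7.71). Ndufa4 was highest in the cycling-marked cluster 7 at 9.44 (9.08 to 9.81), cluster 9 at 9.13 and the goblet-marked cluster 0 at 8.61 (8.34 to 8.88), whereas cluster 3 had only 5.55 (5.29 to 5.82). Ndufa4 was thus 0.411 and 0.426 times Cox4i1 in clusters 0 and 7, but 0.111 in cluster 3 and 0.0595 (0.0515 to 0.0682) in cluster 8.

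Cox7a1 had the widest range of all passing nuclear members, 4.22 on the log2 scale. Its levels in clusters 8, 3, 9, 4, 0 and 1 were 4.27, 3.25, 1.97, 1.71, 1.45 and 1.21, and those of the other 6 lay between 0.134 and 0.639. Its general counterpart Cox7a2 was at 20.3 in cluster 8 and 22.5 in cluster 3, so Cox7a1 was 0.211 and 0.145 times Cox7a2 there and 0.0375 times in cluster 7. Muscle markers (Ckm, Myh7 and Tnnt2) summed to at most 0.0814 in any cluster, with 2 of the 3 at 0 in cluster 8. At the other end, Ndufa2 and Atp5l varied least, with log2 ranges of 1.22 and 1.23.

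**Figure D4:**
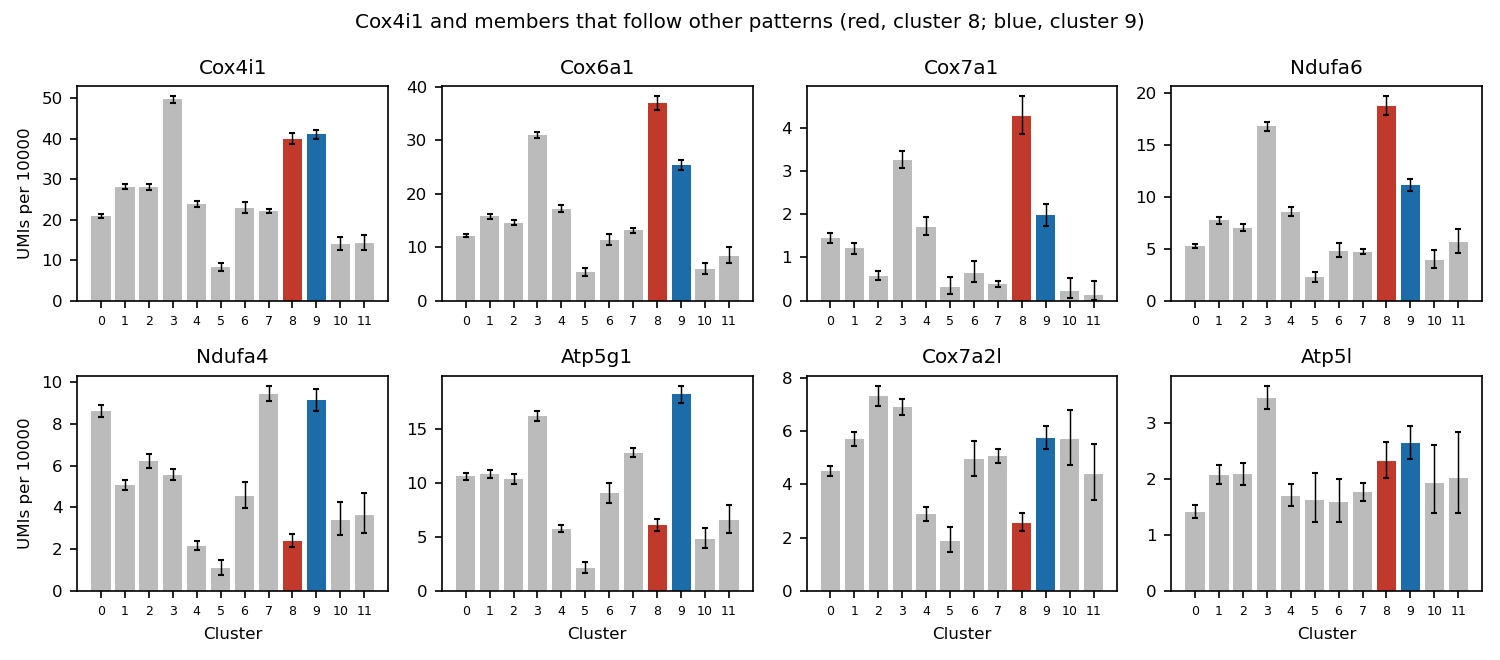
Bars give the level, in UMIs per 10000, of Cox4i1 and of 7 other members described in the text, by cluster, with exact Poisson 95% intervals for counting error and an axis of its own for each gene. Cluster 8 (red) exceeds cluster 9 (blue) for Cox6a1, Cox7a1 and Ndufa6 and lies below it for Ndufa4, Atp5g1 and Cox7a2l, while Cox4i1 is level between them.

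The transcripts of the mitochondrial genome were led by mt-Cytb, the cytochrome b of complex III, mt-Nd1 and mt-Nd4 of complex I, and the large ribosomal RNA mt-Rnr2. In cluster 6, 8 of the 10 that passed the filter were at least 1.5-fold higher, where 8.72% of all genes were, with a median log2 fold of 1.11. There mt-Cytb was at 283 (278 to 288). It was at 27.0 and 29.9 in clusters 10 and 11 and at 105 to 210 elsewhere. In cluster 1, 7 of 10 were higher against 6.68% of all genes. All 10 were lower in clusters 10 and 11, the medians being -2.38 and -2.31, beside the backgrounds of 43.0% and 37.4% given above. In cluster 7, 4 of 10 were lower against 24.8% of all genes. Cluster 6 held small amounts of other cell types' markers, with plasma and B cell markers summed at 26.4, goblet at 54.1 and enteroendocrine at 19.8, and their part was not tested.

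The mitochondrial members did not move as 1 block. The ribosomal RNAs mt-Rnr1 and mt-Rnr2 and the oxidase core subunit mt-Co1 were highest in cluster 4, at 36.6, 149.4 and 33.1, while the other 7 transcripts were highest in cluster 6. The summed ribosomal RNA level was 0.444 times (0.435 to 0.453) the summed messenger RNA level in cluster 8 and 0.396 (0.391 to 0.402) in cluster 4. Clusters 9, 3 and 6 had 0.324, 0.227 and 0.146, and cluster 7 had 0.0938 (0.0915 to 0.0961). In the same way mt-Co1 was 0.277 times mt-Cytb in cluster 8 and 0.0643 times in cluster 7. By contrast mt-Nd1 kept between 0.630 and 0.953 times mt-Cytb in every cluster. Clusters 8 and 4, with the highest ribosomal to messenger ratios, had low ribosomal protein shares, at 4.01% and 5.87%. Cluster 5 was low as well at 5.54%, but its ratio was 0.177. Clusters 7 and 2 both had a share of 22.8%, with ratios of 0.0938 and 0.163.

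**Figure D5:**
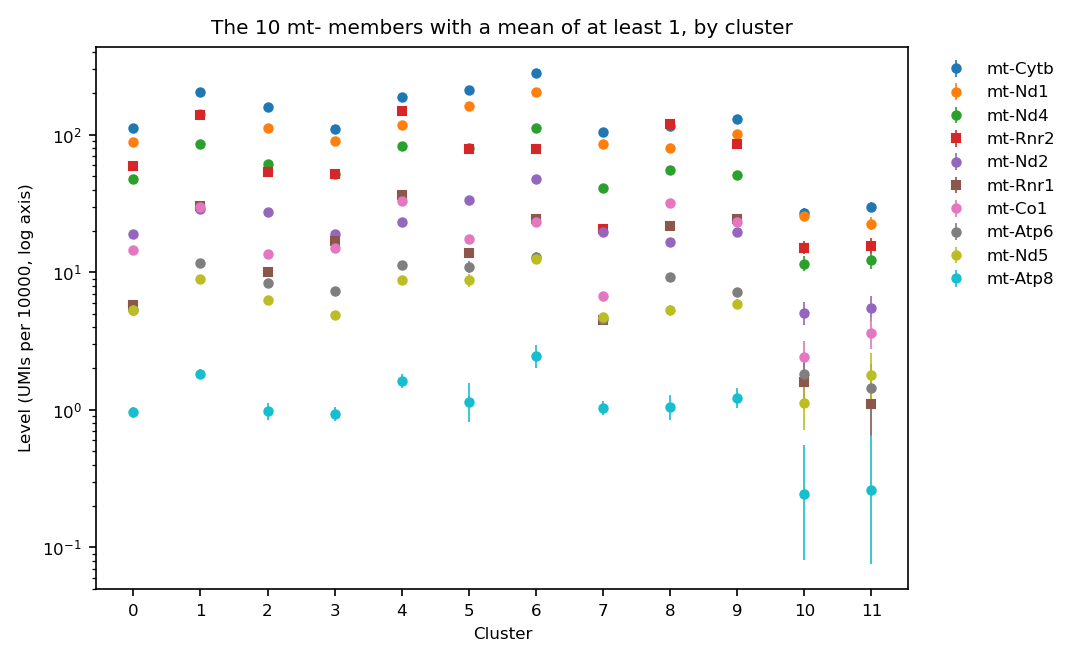
Levels of the 10 passing transcripts of the mitochondrial genome, in UMIs per 10000 on a log axis, by cluster, with exact Poisson 95% intervals for counting error. Squares are the ribosomal RNAs and circles the messenger RNAs. All fall in clusters 10 and 11, most messenger RNAs peak in cluster 6, and among clusters 0 to 9 the ribosomal RNAs and mt-Co1 are lowest in cluster 7.

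Divided by length in kilobases, the levels of the mitochondrial messengers differed widely within each cluster. UMIs count molecules, so the division by length is a description only. In cluster 6 mt-Cytb stood at 247 and mt-Nd1 at 215 UMIs per 10000 and kilobase, mt-Nd4 at 81.5, mt-Atp6 at 19.0 and mt-Co1 at 14.9. The oxidase core subunits mt-Co2 and mt-Co3 were at 1.05 and 1.44, and mt-Nd3 was listed at 0 in cluster 6 and reached 0.106 at most. The part of capture and read mapping in these differences, and so in the mitochondrial sums and ratios above, was not tested. The 11 transfer RNAs were at or below 0.179 per 10000 in every cluster.

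Genes that serve the chain from outside were described by the same counts. Of 20 partners of the chain (carriers, cytochrome c and regulators of the complexes), 17 passed, and 9 were higher in cluster 3 (all genes 16.6%), 10 in cluster 9 (13.6%) and 7 in cluster 8 (20.1%). Slc25a5, the main ADP and ATP exchanger, was at 30.1, 25.1 and 29.1 there and between 4.31 and 21.8 elsewhere. Cycs, the electron carrier to complex IV, was at 6.78, 7.67 and 7.28, and Atpif1, an inhibitor of ATP synthase running in reverse, at 11.1, 13.4 and 4.4. The uncoupling protein gene Ucp2 was highest in cluster 10, at 7.44, and was at 1.79 in cluster 8. Of 10 passing genes of the tricarboxylic acid cycle, 6 were higher in each of clusters 3 and 9 (medians 0.71 and 0.65), beside the same shares of all genes. In cluster 8, 2 were higher and 3 lower, at or below the 20.1% and 37.0% of all genes. Mdh2, the last enzyme of the cycle, was at 6.30, 6.35 and 4.07 in clusters 3, 9 and 8.

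The machinery that builds mitochondria took another course. Of 26 passing genes of the mitochondrial ribosome, 11 were higher in the cycling-marked cluster 7, beside 20.8% of all genes, 9 in cluster 3 (16.6%) and 5 in cluster 9 (13.6%). In cluster 4, 15 were lower beside 34.3% of all genes, and in cluster 8, 7 were, a smaller share than the 37.0% of all genes. Mrpl12, a protein of the large subunit, was at 4.08, 4.23 and 5.12 in clusters 7, 3 and 9, and at 2.04 and 1.71 in clusters 8 and 4. Of 9 import and folding genes, 5 were higher in cluster 7, with a median of 0.86, and 6 and 5 were lower in clusters 4 and 8, at medians of -1.38 and -1.27, beside the shares just given. Hspe1, the small mitochondrial chaperonin, was at 7.56 in cluster 7, 4.66 in cluster 9, 3.06 in cluster 3, 0.620 in cluster 4 and 0.378 in cluster 8. Of 47 assembly factors 7 passed, 3 of them higher in cluster 3 (16.6% of all genes) and 1 each in clusters 8 (20.1%) and 9 (13.6%). Cox17, which brings copper to complex IV, was highest in the neutrophil-marked cluster 5, at 9.57. There 5 of the 7 were lower, a share close to the 70.0% of all genes.

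Of 11 glycolysis genes that passed, none was higher in cluster 3 or 9, where the shares of all genes were low as well, at 16.6% and 13.6%. Cluster 4 had 6 higher, beside 18.9% of all genes, and cluster 8 had 4, beside 20.1% (medians 0.64 and 0.44). Ldha, lactate dehydrogenase A, was at 20.6, 14.2, 14.1 and 12.8 in clusters 8, 9, 4 and 3. Gapdh, a central enzyme of the pathway, was at 24.6 in cluster 4 against 16.5 in cluster 3. Among 6 antioxidant genes, 3 were highest in cluster 10, with Prdx5 at 26.1 and Sod2 at 8.65 among them. At 1.5-fold, 2 of the 6 were higher there and 1 lower, beside 16.4% and 43.0% of all genes. Of 23 regulators of mitochondrial biogenesis, Hnf4a and Slirp passed. Hnf4a, a nuclear receptor of the gut epithelium, was at 3.66 in cluster 8, 2.32 in cluster 9, 2.27 in cluster 4 and 2.06 in cluster 3. Esrra was at 1.45 in cluster 8 and at most 0.967 elsewhere. Ppargc1a, the coactivator best known for mitochondrial biogenesis, was at 0.596 or below in every cluster. Tfam, which packages mitochondrial DNA and takes part in its transcription, was at 0.564 or below.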

How the data were processed

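Single-cell RNA libraries of colon epithelium from 1 group were analysed. The submitters' processing notes name Cell Ranger (3.1.0), Seurat (2.3) and mm10. Cell filters, doublet handling and how clusters were made are not stated in the labels. In the deposited table each cluster column sums to 10000, and its values were read as means of UMIs per 10000, not logged, by the authors.

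Numbers of cells and UMI totals were recovered from values that are 10000 divided by whole numbers (relative tolerance 1e-12), which identified 2325 totals. Recovery and fold counts were checked on simulated data. Approximate UMIs were the level times cells times harmonic mean total. Totals of cells not identified may differ. Folds used a pseudocount of 0.1 and a minimum mean of 1, in Python 3.11.15 with numpy 2.4.6, pandas 2.3.3 and scipy 1.17.1.

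Members and lists were chosen with earlier results of these data known. Genes were named by rule: the 3 highest, the widest and the narrowest of each complex, isoform pairs, complex II, the 5 least correlated members, mitochondrial rows, chosen partners and regulators, and the 4 highest of each list. Atp5k, Uqcr11 and the members beside the filter were chosen after their values were seen. Alternatives covered pseudocount, fold, filter, scaling and reference clusters. Proteins were not analysed here.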

Additional observations from a re-analysis of the deposited data

How the results depend on the processing

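The table holds 1 value a cluster, so leaving out each library in turn was not run, and no paired analysis was possible because the columns carry no replicate. Shares in parentheses are those of all genes called under the same setting. At a fold of 2, cluster 9 had 3 higher nuclear members (3.20%), cluster 3 had 19 (4.29%), cluster 4 had 1 lower (22.0%), cluster 9 over 8 had 7 (18.5%), cluster 3 over 4 had 38 (20.0%), and complex IV in cluster 8 had 2 (11%). With a mean of at least 5, which left 36 nuclear members, 29 were higher in cluster 9 (16.3%), 32 higher in cluster 3 (21.2%), 3 lower in cluster 4 (47.1%), 36 lower in cluster 5 (71.7%), 7 higher in cluster 9 than 8 (36.9%) and 35 higher in cluster 3 than 4 (52.0%). Scaling by the median of ratios gave 28 higher in cluster 9 (7.2%), 5 lower in cluster 4 (34.7%), 38 lower in cluster 5 (34.1%) and 11 higher in cluster 9 than 8 (21.3%). That scaling moved the median of all genes in cluster 5 by 1.17, and relative to all genes the members there were at -0.50, against -0.54 as reported. Across the 4 scalings, members relative to all genes stayed between 0.78 and 0.87 in cluster 3 and between 0.66 and 0.74 in cluster 9, and lay between -0.08 and 0.05 in cluster 4. Leaving clusters 5, 6, 10 and 11 out of the reference gave 9 higher in cluster 9 (5.65%), 37 in cluster 3 (8.24%), 5 of complex IV in cluster 8 (16.1%) and 36 lower in cluster 4 (35.4%). For cluster 4 a pseudocount of 1 gave 3 lower (23.4%), weighting the others by cells 17 (33.9%), and leaving mitochondrial, ribosomal protein and Malat1 UMIs out of the scaling 17 (38.3%). That last setting left 7 of complex IV in cluster 8 (14.8%). The nuclear to mitochondrial ratio became 3.11 in cluster 3 and 0.349 in cluster 5 without the highest member of each kind, and 2.84 and 0.288 with messenger RNAs only. The complex IV count was chosen after seeing the data. Of 435 single-gene values under alternatives, 282 moved by at most 0.2 on the log2 scale, 153 moved by more and 0 called ones changed sign. Few cells limit clusters 10 and 11, and few UMIs a cell limit clusters 5 and 6.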
